A study of Mus musculus with 6 samples.

Results

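Transfer RNA (tRNA) genes were examined for CHD7 and H3K27ac in cardiac neural crest cells of the mouse. The members were the nuclear tRNA genes of the RefSeq gene table (build GRCm38.p6, the assembly behind mm10) that lay more than 2 kb from both ends of every protein-coding gene. Of 430 tRNA genes in the table, 22 were mitochondrial and 5 carried coordinates of unplaced sequence, which left 403, and 336 of these met the rule. Each gene was given a window that reached 1 kb beyond either end, and peaks of the deposited lists were counted in these windows. The cells came from E10.5 embryos of male Wnt1-Cre2 mice crossed with female mTmG mice. They were sorted for green fluorescence from pharyngeal arches 3 to 6. All groups share this genotype and sort: 2 libraries of CHD7 ChIP, 2 of H3K27ac ChIP and 2 of input chromatin. Wnt1-Cre2 drives recombination in the neural crest lineage, and mTmG is a reporter that turns to green fluorescence after recombination. The sorted cells are thus all green cells of these arches and not a single subtype. The labels do not say whether embryos were pooled, and none says that libraries of a group came from separate sorts, so p-values measure only the spread between these libraries, which may be technical.

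tRNAs carry amino acids to the ribosome, and each pairs with a codon through its anticodon. Their genes are short and are transcribed by RNA polymerase III, which is recruited through promoter elements inside the gene, the A box and the B box, bound by the factor TFIIIC. Mammalian genomes hold many near-identical copies of each tRNA gene, partly in clusters, and active copies are known to lie in open chromatin with acetylated histones beside the gene. CHD7 is an ATP-dependent chromatin remodeller, and H3K27ac, acetylated lysine 27 of histone H3, is a mark of active promoters and enhancers. RefSeq symbols of mouse tRNA genes give the amino acid as a letter and then the anticodon, so that n-TAagc16 is a copy of the alanine tRNA gene with anticodon AGC.

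The tRNA genes had no promoter entry of their own in the RefSeq sequence table, but 30 promoter windows of other genes overlapped tRNA windows and 4 of these held bases of a member. The following 3 are shown because they hold internal promoter elements of tRNA genes that CHD7 peaks covered. Each runs 5′ to 3′ on the minus strand of GRCm38.p6 and is 300 bases long, and capitals mark the bases of the tRNA gene. They are the promoter windows of Gm46404 (chr13:23445922-23446221, with all 73 bases of n-TVcac9), Gm32420 (chr13:21222490-21222789, with all 72 bases of n-TAagc16) and Gm35090 (chr1:171033969-171034268, with 47 of the 74 bases of n-TNgtt6).
n-TVcac9: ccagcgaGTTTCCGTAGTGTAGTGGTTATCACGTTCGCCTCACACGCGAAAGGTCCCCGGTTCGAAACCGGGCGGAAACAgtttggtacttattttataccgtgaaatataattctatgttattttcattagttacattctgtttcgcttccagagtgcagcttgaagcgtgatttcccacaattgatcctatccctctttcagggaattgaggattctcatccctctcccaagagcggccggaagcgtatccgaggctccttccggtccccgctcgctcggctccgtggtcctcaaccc
n-TAagc16: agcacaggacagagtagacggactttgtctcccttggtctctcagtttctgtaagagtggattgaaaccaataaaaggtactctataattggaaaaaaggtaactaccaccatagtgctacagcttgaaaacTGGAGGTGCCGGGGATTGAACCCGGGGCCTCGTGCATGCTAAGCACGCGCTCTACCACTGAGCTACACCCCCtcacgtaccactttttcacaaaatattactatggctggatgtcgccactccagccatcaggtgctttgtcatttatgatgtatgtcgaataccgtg
n-TNgtt6: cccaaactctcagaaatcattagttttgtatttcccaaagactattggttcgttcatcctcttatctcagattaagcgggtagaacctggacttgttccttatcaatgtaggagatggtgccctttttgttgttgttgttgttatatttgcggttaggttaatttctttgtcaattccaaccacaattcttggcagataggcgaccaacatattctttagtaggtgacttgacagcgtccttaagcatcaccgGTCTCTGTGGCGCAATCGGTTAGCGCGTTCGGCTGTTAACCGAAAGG

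The core of the B box, searched as GGTTCNA on both strands, was found once in n-TVcac9, at position 59 of the printed window on the printed strand, and once in n-TAagc16, at position 148 on the opposite strand. An A box, searched on both strands, was found once in each of the 3 genes, at positions 15, 187 and 261 in the order shown. The 3 were chosen for holding such elements, so a match in each is not a result. The remaining window, of Gm39827, held 17 of the 107 bases of n-TLcaa3 and no match in them. No B box core was found in the 47 bases of n-TNgtt6 that the window holds. The A box lay on the same strand as the B box in both genes that had a B box, and the matches did not overlap. Of all 32851 promoter windows in the table, searched over their whole length, 9.73% held a B box core and 22.4% an A box. The matches above were searched in the shorter tRNA bases alone, so these shares are not for sequence of the same length. A match describes letters only and is not a measured site.

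CHD7 peaks covered all 3 of these genes. At n-TVcac9, a valine tRNA gene, CHD7 fold enrichment was 4.04 in library 1 and 3.27 in library 2. Fold enrichment is the ratio at the peak's summit that the authors' peak caller gave, and −log10 q, its measure of confidence, was 19.6 and 11.1 there. H3K27ac at n-TVcac9 had folds of 3.94 and 4.06, from peaks that did not overlap each other. The peak of library 1 covered the gene, and that of library 2 did not, with its summit 408 bp away. A lower H3K27ac peak of library 2, with a fold of 3.65, overlapped the peak of library 1 but did not cover the gene. At n-TAagc16 the CHD7 folds were 4.65 and 4.22, with both summits inside the 72 bases of the gene. H3K27ac had folds of 5.13 and 6.02 there, with summits 561 and 368 bp from the gene. At n-TNgtt6, an asparagine tRNA gene, CHD7 had folds of 2.89 and 2.47 and H3K27ac had no peak in either library. The 3 genes were chosen with CHD7 peaks over them, so CHD7 at all 3 is not a result, and 1 of them lacked H3K27ac.

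CHD7 was called at most tRNA genes. A CHD7 peak lay in 205 of 336 windows in library 1 and in 192 in library 2, or 59.1% ± 2.74 (SD, n = 2). H3K27ac peaks lay in 133 and 119 windows, or 37.5% ± 2.95 (SD, n = 2), and the input libraries had a peak in 0 and 0 windows. Every CHD7 library was above every H3K27ac library. The difference between CHD7 and H3K27ac was 21.6 percentage points, larger than the spread between libraries of either antibody. The two-sided exact permutation p was 0.33, the smallest that 2 against 2 libraries allow. Tiles across the genome more than 2 kb from protein-coding gene ends had the same order, with CHD7 in 1.46% and H3K27ac in 0.965% (means of 2 libraries). More windows with CHD7 than with H3K27ac are thus not particular to tRNA genes. The input lists hold 451 and 512 peaks in all, against 22686 to 31873 in the ChIP lists, so that so few peaks could hardly reach 336 windows. The differences of 59.1 (CHD7) and 37.5 points (H3K27ac) from input therefore carry no test. Depths are unknown, since the lists hold no read counts. In sorted cells, fewer cells with a signal and less signal per cell cannot be told apart.

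Both CHD7 libraries had a peak in 188 windows (56.0%), against 0.93% of 1211016 tiles of the same width across the genome more than 2 kb from protein-coding gene ends. Both H3K27ac libraries had a peak in 117 windows (34.8%), against 0.632% of tiles. For such counts each library needed a peak in the window, and these peaks did not have to overlap each other. Windows of miRNA, snRNA and snoRNA genes under the same distance rule, which are also short non-coding genes, held CHD7 in both libraries in 2.89% and H3K27ac in 2.96% of 3075 cases. The input libraries had a shared peak in 0.0226% of tiles and 0.065% of these gene windows, so that 0 in 336 is close to what input shows elsewhere. Windows moved 5 kb to either side of the tRNA genes held CHD7 in both libraries in 9 of 382 cases and H3K27ac in 6. Moved by 10 kb they held CHD7 in 18 of 395 cases and H3K27ac in 15, and by 20 kb in 10 and 6 of 419. Windows beside the tRNA genes thus held peaks far less often than windows on them. The plot of shares by library sets these values side by side.

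**Figure D1:**
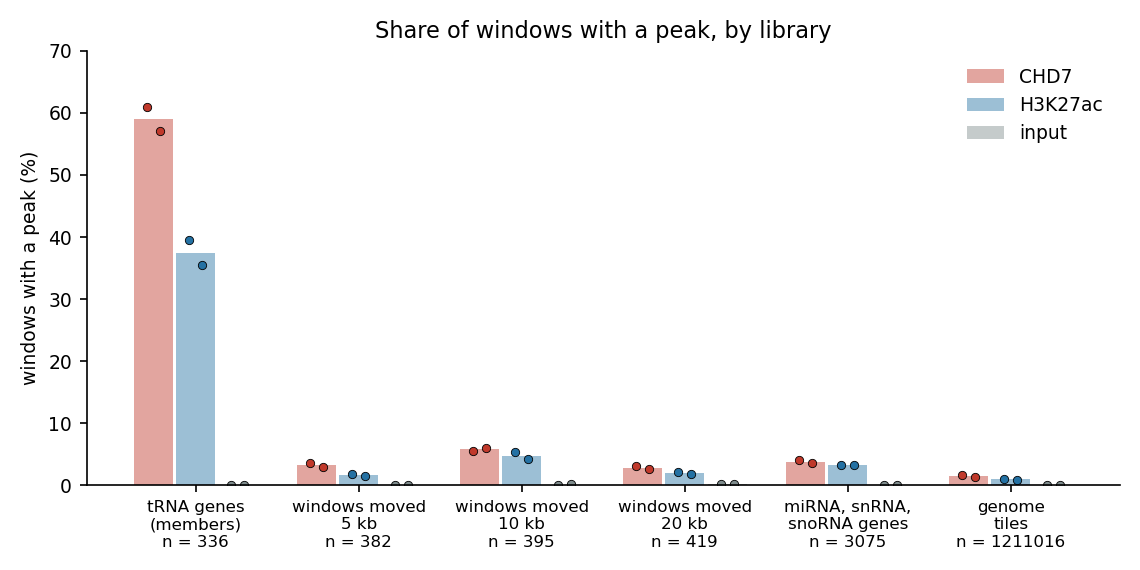
Share of windows with a peak (y axis, percent) for tRNA genes, for the same windows moved by 5, 10 or 20 kb, for miRNA, snRNA and snoRNA genes and for genome tiles. Bars are means of 2 libraries and points are single libraries of CHD7, H3K27ac and input. CHD7 stands at 59.1% and H3K27ac at 37.5% of tRNA windows, and single libraries of the other sets reach at most 6.08%.

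Neighbouring windows can share a peak. The 205 and 192 windows with CHD7 were covered by 158 and 143 different peaks, and the 133 and 119 windows with H3K27ac by 104 and 94. With overlapping windows joined, 224 loci remained, and CHD7 peaks lay in 122 and 112 of them (52.2% ± 3.16, SD, n = 2), H3K27ac peaks in 78 and 68 (32.6% ± 3.16). Counted by loci instead of genes, the share with CHD7 in both libraries was 49.1%.

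The libraries of an antibody called mostly the same tRNA genes. Of the 192 members with CHD7 in library 2, 97.9% had it in library 1, and 91.7% of the 205 members of library 1 had it in library 2. For H3K27ac these shares were 98.3% of 119 and 88.0% of 133. Over the 122 different pairs of CHD7 peaks behind the 188 shared members, Pearson's r of log2 fold between the libraries was 0.86 and Spearman's rho 0.86. Over 75 pairs of H3K27ac peaks they were 0.74 and 0.73. These correlations run across peaks, which share the library and its depth, and describe the lists only.

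CHD7 peaks at tRNA genes were of middling height within their lists. Their median fold was 3.42 in library 1 (range 1.85 to 7.49) and 3.63 in library 2 (1.90 to 9.33), against 3.12 and 3.15 for the other CHD7 peaks more than 2 kb from protein-coding gene ends. Only 0 and 1 of them were among the 100 highest peaks of their list. They were broader, with median widths of 696.5 and 769 bp against 440 and 440 bp, and had a median −log10 q of 9.07 and 9.61 against 4.31 and 4.5. H3K27ac peaks in tRNA windows had median folds of 3.81 and 3.93, between the 3.1 and 3.11 of other peaks away from gene ends and the 4.20 and 4.19 of peaks within 2 kb of protein-coding gene ends. No test was run on these values.

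CHD7 and H3K27ac differed in position. Of the CHD7 peaks in the windows, 81.6% of library 1 and 86.7% of library 2 covered a tRNA gene, and their summits lay a median of 114 and 100 bp from the nearest tRNA gene. H3K27ac peaks covered a tRNA gene in 34.6% and 29.8% of cases, and their summits lay 329 and 340.5 bp away. Summits lay inside the tRNA gene for 26 and 22 CHD7 peaks and for 0 and 0 H3K27ac peaks. The mean of the median distances was 107 ± 9.90 bp for CHD7 and 335 ± 8.13 bp for H3K27ac (SD, n = 2 each), a difference of 228 bp that exceeded the spread within both groups (exact permutation p = 0.33, two-sided, the smallest possible).

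The same offset showed in coverage. CHD7 peaks covered the tRNA gene itself in 51.8% and 49.1% of the 336 members, and H3K27ac peaks in 11.6% and 9.52%. At 350 bp from the gene, as a mean of both sides, CHD7 covered 33.5% and 32.7% and H3K27ac 19.8% and 17.9%, its highest level. At 1950 bp, CHD7 covered 5.65% and 4.91% and H3K27ac 2.83% and 2.53%. CHD7 thus fell with distance from the gene, while H3K27ac rose before it fell. The gene table gives no strand for tRNA genes, so upstream and downstream flanks were not told apart.

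**Figure D2:**
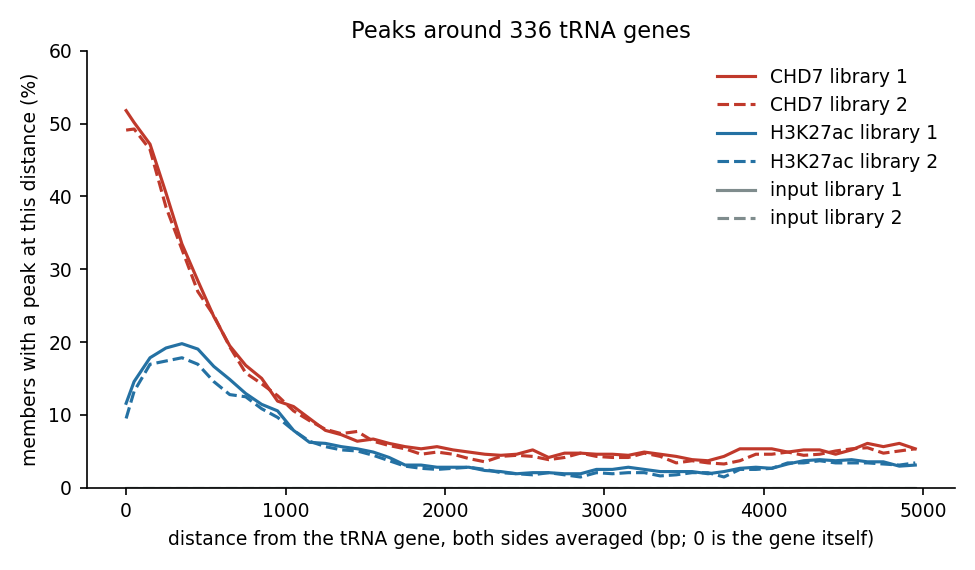
Share of the 336 tRNA genes with a peak (y axis, percent) at a given distance from the gene (x axis, bp, in bins of 100 bp, both sides averaged), for each library. CHD7 lines start at 51.8% and 49.1% at the gene and decline, H3K27ac lines start at 11.6% and 9.52% and reach their highest level near 350 bp, and both input lines lie at 0.

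CHD7 accompanied H3K27ac at tRNA genes, but not always the reverse. Of the 117 members with H3K27ac in both libraries, 112 had CHD7 in both libraries, 5 in 1 library and 0 in none. Of the 188 members with CHD7 in both, 112 (59.6%) had H3K27ac in both, 17 in 1 library and 59 in none. In 126 windows neither antibody had a peak in any library. Of 7659 genome tiles with H3K27ac in both libraries, 4379 had CHD7 in both and 1670 in none. Of 11260 tiles with CHD7 in both, 5255 had no H3K27ac peak, so CHD7 without H3K27ac was not particular to tRNA genes. At the 112 members with both, CHD7 and H3K27ac peaks of library number 1 overlapped by at least 1 bp in 107 windows, and those of number 2 in 108. H3K27ac lay on a single side of the gene without covering it at 60 and 64 of these members, on both sides without covering it at 15 and 17, and over the gene at 37 and 31.

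CHD7 fold was higher where H3K27ac was present, with wide overlap. At the 112 members with both, the CHD7 fold had a lowest, median and highest value of 2.00, 4.29 and 7.23 in library 1 and 1.90, 3.99 and 9.33 in library 2. At the 59 members with CHD7 and no H3K27ac peak it was 2.18, 3.49 and 7.49 in library 1 and 2.06, 3.46 and 6.39 in library 2. Their median −log10 q was 8.97 and 8.65, against 17.99 and 16.5 at the members with both. A lower CHD7 signal thus moved with the lack of an H3K27ac call, and its part in that lack was not tested. Where both were present, their mean folds were weakly related across 72 pairs of peaks, with a Pearson's r of log2 fold of 0.32 and a Spearman's rho of 0.29.

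**Figure D3:**
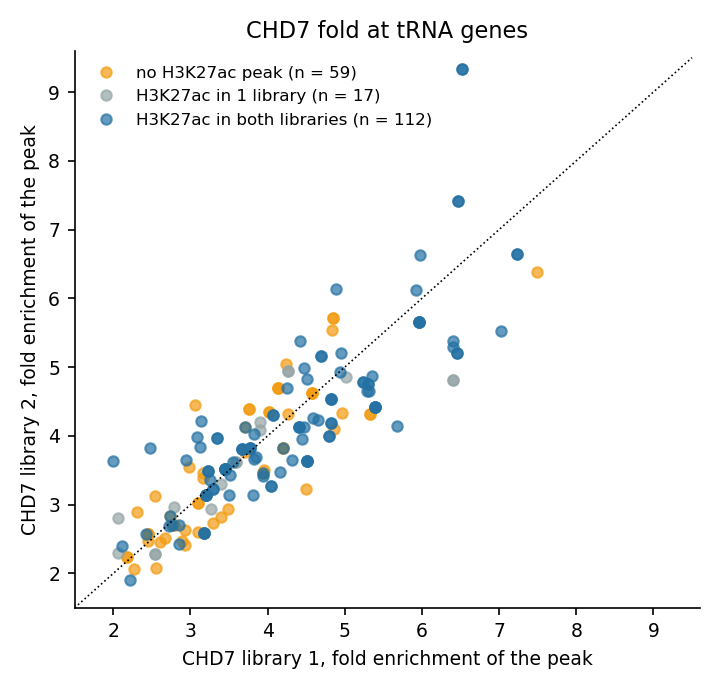
CHD7 fold enrichment in library 1 (x axis) and library 2 (y axis) for the 188 tRNA genes with CHD7 in both libraries, coloured by H3K27ac. Each point is a gene, genes that share a peak coincide, and the dotted line marks equal folds. Genes with and without H3K27ac overlap over most of the range, with medians of 4.29 and 3.49 in library 1.

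The peak with the highest mean CHD7 fold covered a pair of tRNA genes on chromosome 2, n-TAcgc8 (alanine, 57182078 to 57182149) and n-TGgcc8 (glycine, 57182394 to 57182464). Its fold was 6.52 in library 1, below those of n-TAagc17, n-TMcat13 and the leucine pair described next, and 9.33 in library 2, the highest there. The lysine pair n-TKctt26 and n-TKctt25 on chromosome 1 (133033962 to 133034399) had 6.47 and 7.41. The leucine pair n-TLcag5 and n-TLcag4 on chromosome 8 (94703631 to 94704086) had 7.23 and 6.64. Members of such a pair lie within a single peak and are not separate measurements. H3K27ac had folds of 6.45 and 5.75 at the chromosome 2 pair, where its peaks covered both genes. Beside the other pairs, whose genes it did not cover, it had 6.52 and 5.17 at the lysine pair and 3.75 and 4.03 at the leucine pair.

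The alanine gene n-TAagc17 on chromosome 13 (21234045 to 21234116) had CHD7 folds of 7.49 and 6.39 and no H3K27ac peak, alone among the 10 members with the highest mean CHD7 fold. The glycine gene n-TGgcc2 (chromosome 8, 111062561 to 111062631), which lies in the body of a protein-coding gene, had 5.98 and 6.63. The methionine gene n-TMcat13 (chromosome 13, 21326717 to 21326789) had 7.03 and 5.53, and the leucine gene n-TLtag1 (chromosome 7, 120835479 to 120835560) had 5.92 and 6.12. The summits at n-TLtag1 lay inside the gene in both libraries, and those at n-TMcat13 lay at 0 and 22 bp from it.

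The highest mean H3K27ac fold was found at n-TMcat8, a methionine gene on chromosome 13 (21975032 to 21975103), with folds of 10.1 and 10.2, peaks that covered the gene and summits 239 and 269 bp away. CHD7 there had 6.4 and 5.37. On chromosome 1, n-TGtcc2 and n-TLcag3 shared an H3K27ac peak of 8.61 and 6.23, and n-TLcag9, n-TDgtc5, n-TGtcc3 and n-TEctc6 (171101838 to 171103114) shared another of 7.03 and 6.30. The lone genes n-TTcgt5 (threonine, chromosome 16, 13437323 to 13437394) and n-TEttc6 (glutamate, chromosome 14, 76152774 to 76152845) had H3K27ac folds of 7.38 and 6.59, and 7.58 and 6.35. The proline gene n-TPagg2 (chromosome 1, 165641634 to 165641705) shared a peak of 6.77 and 6.38 with the proline gene n-TPcgg2 (165642271 to 165642342). The peak covered n-TPcgg2, with summits 330 and 320 bp away, and not n-TPagg2, from which the summits lay 967 and 957 bp. CHD7 folds at these 10 members ranged from 3.23 at n-TGtcc2 to 6.4 at n-TMcat8 in library 1, and from 3.49 at n-TGtcc2 to 6.14 at n-TTcgt5 in library 2.

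Members were joined into a cluster where neighbours lay at most 50 kb apart. This gave 13 clusters of 5 or more genes with 230 members, 14 clusters of 2 to 4 genes with 35 members, and 71 lone genes. CHD7 lay in both libraries at 134 of 230, 28 of 35 and 26 of 71 members of these classes, and H3K27ac at 72, 26 and 19. By members, the clusters of 2 to 4 genes were thus most often covered and lone genes least often. The 230 members of the larger clusters include 48 cysteine and 8 alanine genes in clusters without any peak, described below. As loci, 11 of the 13 larger clusters, 12 of the 14 smaller ones and 26 of the 71 lone genes held at least 1 member with CHD7.

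The cluster on chromosome 1 (171033942 to 171111515, 20 genes of 6 amino acids) had CHD7 in both libraries at all 20 genes and H3K27ac in both at 17. Its 20 windows held 10 CHD7 peaks in library 1 and 9 in library 2, and the highest mean fold, 5.97 and 5.65, belonged to the peak shared by n-TLcag9, n-TDgtc5, n-TGtcc3 and n-TEctc6. Its summits lay nearest to n-TEctc6, at 48 and 68 bp. Every member also had CHD7 in the clusters of chromosome 5 (5 genes, 125404250 to 125409543), chromosome 11 (7 genes, 48823728 to 48857055) and chromosome 14 (5 genes, 51063883 to 51088722). H3K27ac was called in both libraries at 3, 0 and 4 of these genes. The highest folds were 3.59 and 3.63 at n-TDgtc14, 6.41 and 4.81 at n-TKctt10 and 4.40 and 4.12 at n-TLaag8, in that order. Each of these genes shared its folds with neighbours: n-TAtgc5 on chromosome 5, n-TAtgc9 on chromosome 11, and n-TPagg4 and n-TTtgt3 on chromosome 14. The chromosome 11 cluster thus had CHD7 throughout with H3K27ac in 1 library at most.

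On chromosome 13, in the region that also holds the large histone gene cluster, 4 clusters of 5 or more held 98 members, of which 76 had CHD7 and 34 had H3K27ac in both libraries. Of these 98, 37 had CHD7 without any H3K27ac peak, out of 59 such members in all. CHD7 lay at 19 of 24 genes from 21160785 to 21326789, with n-TAagc17 highest, and at 24 of 32 genes from 21848022 to 22050767, with n-TMcat8 highest. It lay at 7 of 9 genes from 23270421 to 23317538, where n-TVaac4 and n-TAagc10 shared the highest folds of 4.85 and 5.72, and at 26 of 33 genes from 23397060 to 23526528, where n-TAagc12 and n-TVaac2 shared the highest of 5.24 and 4.78. H3K27ac lay in both libraries at 7, 9, 1 and 17 genes of these 4 clusters. The third cluster was covered by CHD7 about as often as the others and had H3K27ac at a single gene.

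The cluster of chromosome 3 (24 genes, 96322074 to 96501518) had CHD7 at 13 members and H3K27ac at 6, with n-TNgtt11 highest at 4.93 and 4.94. That of chromosome 17 (7 genes, 23533962 to 23550335) had them at 2 and 3 members, with n-TRccg2 highest at 3.55 and 3.63. That of chromosome 19 (8 genes, 12002236 to 12012338) had them at 6 and 5, with n-TFgaa6 highest at 3.95 and 3.51.

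Neither antibody had a peak at 2 of the 13 clusters of 5 or more genes, nor at a cluster of 3 alanine genes on the X chromosome (136553725 to 136569317). Of the larger ones, the cysteine cluster of chromosome 6 (48133937 to 48363603) holds 48 genes, all with anticodon GCA, over 230 kb, and no library had a peak anywhere in its span, input included. The alanine cluster of 8 genes on the X chromosome (136357602 to 136430436) also lacked peaks over its whole span in all 6 libraries. All genes of each of these 3 clusters encode a tRNA for the same amino acid. The labels do not say how reads that map to several copies were treated, and their part in the lack of peaks was not tested. Outside the chromosome 6 cluster, CHD7 lay in both libraries at 65.3% of 288 members and H3K27ac at 40.6%. All 15 members of the X chromosome lacked both, against CHD7 at 188 of 321 autosomal members. Tiles of the X chromosome had CHD7 in both libraries in 0.134% of cases and autosomal tiles in 1.02%, and H3K27ac in 0.159% and 0.69%, so fewer peaks were called on the X chromosome in general.

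**Figure D4:**
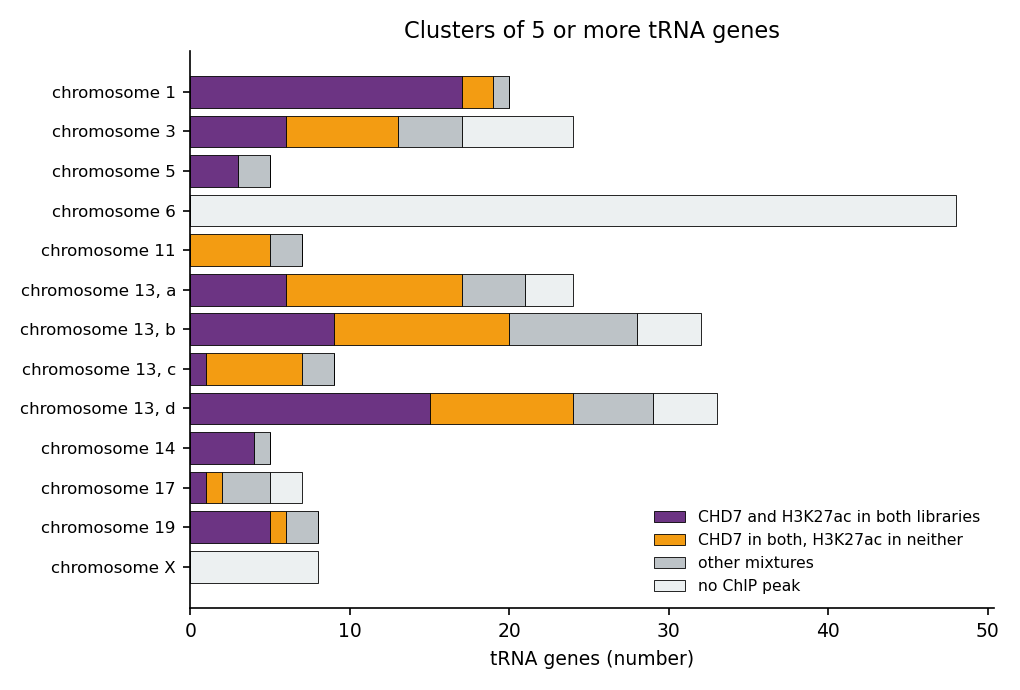
Number of tRNA genes (x axis) in each of the 13 clusters of 5 or more genes, divided by peak calls. Letters a to d number the 4 clusters of chromosome 13 by position. All 20 genes of chromosome 1 have CHD7, the 48 genes of chromosome 6 and the 8 of chromosome X have no peak of either antibody, and genes with CHD7 and no H3K27ac are most numerous on chromosome 13.

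By chromosome, CHD7 in both libraries was called at 25 of 31 members on chromosome 1, 6 of 7 on chromosome 2, 22 of 36 on chromosome 3, 18 of 23 on chromosome 11, 78 of 102 on chromosome 13 and 7 of 8 on chromosome 14. It was called at 1 of 7 on chromosome 4 and 1 of 51 on chromosome 6. The single member of chromosome 6 with CHD7 was the cysteine gene n-TCgca57 (47978997 to 47979068), with folds of 4.5 and 3.23 and no H3K27ac.

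Genes for tRNAs of all 20 amino acids were among the members, and each amino acid had at least 1 gene with CHD7 in both libraries and at least 1 with H3K27ac in both. By anticodon, 45 of 48 had a gene with CHD7 and 38 had a gene with H3K27ac. The 3 anticodons without CHD7 in both libraries had few genes: arginine CCT with 2, histidine ATG with 1 and serine GGA with 1. CHD7 was called at 18 of 22 leucine, 17 of 23 glycine, 11 of 15 proline, 13 of 19 valine, 11 of 16 arginine, 11 of 16 glutamate and 10 of 13 aspartate genes. It was called at 5 of 6 phenylalanine, tryptophan and tyrosine genes each. Lysine (9 of 24) and cysteine (2 of 52) had lower shares, and 48 of the cysteine genes lie in the empty chromosome 6 cluster. Alanine (17 of 30, 56.7%) was near the share of all members, 56.0%, and its genes include the 8 and 3 of the empty X chromosome clusters.

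Copies of the same tRNA gene differed. Of 43 anticodons with 2 or more genes, 10 had CHD7 at every gene, 32 had it at some, and 1 at none. All 11 alanine genes with anticodon AGC had CHD7, as did all 6 glycine genes with TCC and all 4 genes each of leucine AAG, arginine ACG and threonine TGT. Of the 10 alanine genes with anticodon TGC, 3 had it. Of 22 lysine genes with CTT, 8 had it, and of 12 isoleucine genes with AAT, 7. H3K27ac was called at all 6 glycine TCC genes, at 7 of the 11 alanine AGC genes and at 1 of the 4 leucine AAG genes. Glutamine genes had CHD7 at 8 and H3K27ac at 1 of 14, and serine genes at 8 and 2 of 14, so that H3K27ac was rarer there than at glycine (17 and 13 of 23) or proline genes (11 and 10 of 15). Genes of an amino acid share clusters and peaks, so these counts were not tested.

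**Figure D5:**
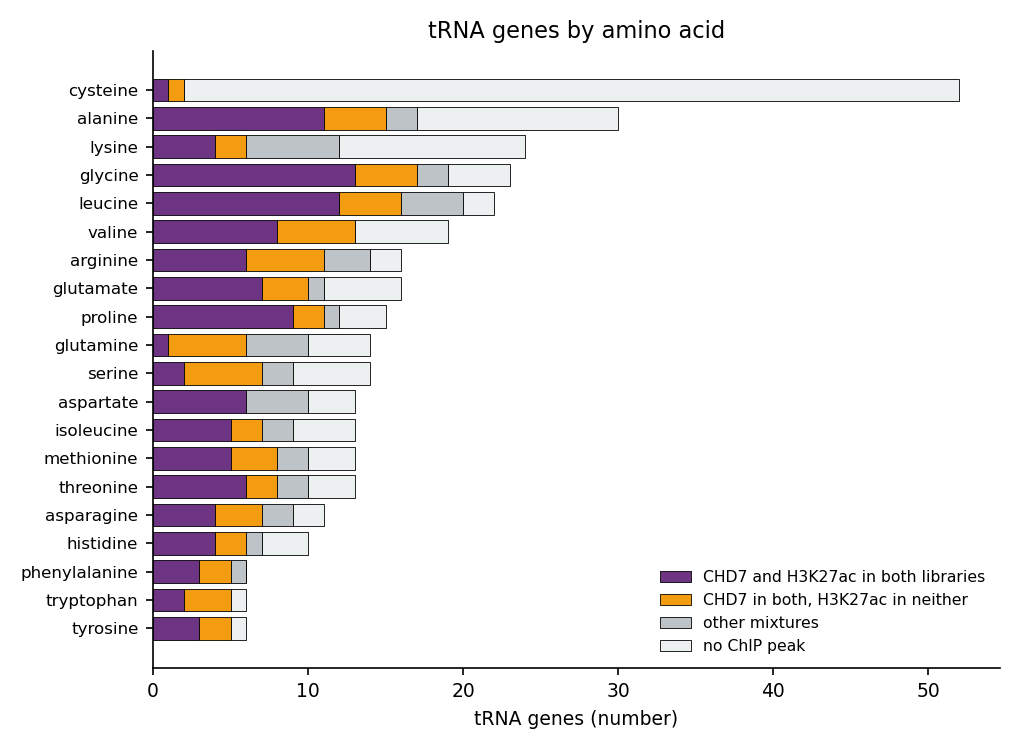
Number of member tRNA genes (x axis) by amino acid (y axis), divided by peak calls in the libraries of CHD7 and H3K27ac. Cysteine has 52 genes of which 50 lack any ChIP peak, leucine has CHD7 in both libraries at 18 of 22 genes, and CHD7 without H3K27ac is most frequent relative to both together at glutamine and serine genes.

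CHD7 was called at a smaller share of tRNA genes with growing distance from protein-coding gene ends. The share with H3K27ac was highest from 5 to 10 kb and lowest beyond 50 kb. CHD7 in both libraries was found at 32 of 39 members (82.1%) from 2 to 5 kb away, 58 of 79 (73.4%) from 5 to 10 kb, 93 of 146 (63.7%) from 10 to 50 kb and 5 of 72 (6.94%) beyond 50 kb. The share of genome tiles in the same ranges was 1.80%, 1.18%, 1.10% and 0.674%. H3K27ac was found at 41.0%, 50.6%, 40.4% and 2.78% of members in these ranges, and in 1.61%, 0.980%, 0.818% and 0.339% of tiles. Of the 72 members beyond 50 kb, 42 belonged to the cysteine cluster, and 5 of the other 30 had CHD7. These were n-TNgtt9 (chromosome 2, folds 4.20 and 3.82), n-TGgcc9 (chromosome 3, 4.24 and 5.05), n-TGccc1 (chromosome 3, 2.45 and 2.47), n-TEttc7 (chromosome 7, 3.83 and 3.67) and n-TEttc8 (chromosome 9, 4.97 and 4.33), and n-TNgtt9 and n-TEttc7 also had H3K27ac. These 5 were named after their values were seen. At n-TGccc1 the CHD7 peaks of libraries 1 and 2 did not overlap each other, and neither covered the gene. In gene bodies, 7 of 23 members had CHD7 and 2 had H3K27ac in both libraries, against 181 and 115 of 313 between genes.

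In 45 windows an end of another annotated gene lay within the window. CHD7 in both libraries was found at 37 of these 45 and at 151 of the 291 windows without one, and H3K27ac at 27 and 90. The 5 members nearest to the 2 kb limit, from 2184 to 2355 bp, had CHD7 in both libraries at 4, and the 5 tRNA genes just under it, from 1780 to 1919 bp, at 5. H3K27ac in both libraries lay at 1 gene on either side of the limit.

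A list of 44 genes covered RNA polymerase III, its factors and proteins that handle tRNAs, and not all of them serve tRNA genes. CHD7 regions, joined from overlapping peaks of both libraries, lay within 1 kb of an end of 35 (79.5%), against 44.2% of 21776 protein-coding genes, and H3K27ac regions at 39 (88.6%), against 47.6%. Both lay at 32. The list holds broadly expressed genes, and no test was run on it. The highest mean CHD7 folds were found at Snapc5 (6.25 and 5.58), a subunit of the SNAP complex that recruits polymerase III to small nuclear RNA genes, Tsen34 (5.80 and 5.26), a subunit of the tRNA splicing endonuclease, Gtf3c6 (5.66 and 5.31), a subunit of TFIIIC, and Polr2e (5.63 and 5.31), a subunit shared by the RNA polymerases. Polr3a, the largest subunit of polymerase III, had CHD7 folds of 2.29 and 3.28 without H3K27ac. CHD7 was absent at Bdp1, Brf2 and Tbp, parts of TFIIIB, and at Gtf3a, Polr1c and Snapc2, all of which had H3K27ac. Polr2f and Snapc3 had neither, and Snapc4 and Tsen15 had CHD7 alone.

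As a check of the cell type label, regions within 1 kb of a gene end were counted at marker genes, where the share over all protein-coding genes is 47.6% for H3K27ac and 44.2% for CHD7. Of 10 neural crest markers 1 had it, Twist1, and Sox10, Tfap2a, Tfap2b, Foxd3, Pax3, Prrx1, Hand2, Ets1 and Snai2 had none, while CHD7 lay at Ets1 and Snai2. Of 4 markers each, 0 had it for cardiomyocytes, 0 for endothelium, 2 for blood cells (Klf1 and Spi1) and 1 for epithelium (Krt8). CHD7 lay at 0, 2 (Kdr and Cldn5), 2 (Klf1 and Spi1) and 1 (Epcam) of these lists in the same order. With 4 genes a list, counts of 2 are at the share of all genes. The part of such cells in the values at tRNA genes was not tested. H3K27ac at gene ends thus did not mark the neural crest list, and regions farther from gene ends were not counted.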

How the data were processed

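ChIP-seq peak lists of 6 libraries were used. The submitters' processing notes name build mm10 and the tools MACS2 2.1.2, Picard, Bowtie2 2.3.3.1 and bcl2fastq 2.18.0.12. How input entered the calls is not stated there. The authors' lists hold per library the fold enrichment of each peak (a ratio), its deposited −log10 p-value and −log10 q-value, and a deposited score per peak. Folds were compared only within a list or set side by side. The lists hold no counts, so depth is unknown.

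Entries of 1 interval were joined to 1 peak with the highest fold, and 27 to 106 peaks per library outside the placed nuclear chromosomes were left out. The ChIP lists then held 22686 to 31873 peaks and the input lists 451 and 512. Overlap meant at least 1 bp. A member counted as having a peak in both libraries where each had a peak in its window, not always the same one. The fold of a member was that of the highest peak in its window. Genes starting below 3000000 (Y: 500000) carry unplaced coordinates and were left out. tRNA amino acids were read from symbols, with the lower-case letter of n-Tcgca44 read as cysteine. Tiles were 2072 bp wide. Shares were compared over libraries by exact permutation; counts and folds were described. Named genes were the 10 members each of highest mean CHD7 and H3K27ac fold over both libraries without an input peak, members with an input peak or with H3K27ac and no CHD7 (none found), and each cluster of 5 or more with its highest CHD7 member; of the list of 44, the 4 of highest CHD7 fold and those lacking CHD7 or H3K27ac, of which some are not reported here by name. Members and lists were chosen with earlier results of these data known. Alternatives covered flanks, distances, q limits, summits, merged windows, left-out libraries and pairing. Overlap code was tested on simulated intervals. Python 3.11.15, numpy 2.4.6, pandas 2.3.3 and scipy 1.17.1 were used.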

Additional observations from a re-analysis of the deposited data

How the results depend on the processing

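The order of CHD7 above H3K27ac held under every alternative run, and no difference could pass a test with 2 libraries a group. Leaving out 1 library, the difference ranged from 57.1 to 61.0 percentage points for CHD7 against input, from 35.4 to 39.6 for H3K27ac against input and from 19.5 to 23.7 for CHD7 against H3K27ac. With the sample number as a replicate block the differences were 59.1, 37.5 and 21.6 (exact sign-flip p = 0.5, the smallest 2 pairs allow). No label says that numbers pair libraries, and the deviations of same-numbered CHD7 and H3K27ac libraries had a Pearson's r of −0.15 over 72 peak pairs. A crossed pairing, chosen after seeing the data, gave the same 3 values, with an exact sign-flip p of 0.5.

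Counts of members with a peak in both libraries moved by over 1.5 times in 3 cases. More than 10 kb from protein-coding gene ends, where fewer members remain, 98 had CHD7 and 61 H3K27ac, against 188 and 117. With a −log10 q of at least 10 they were 117 and 65. With overlapping windows merged, 110 and 67 of 224 loci had them. A flank of 200 bp gave 170 and 78. Of the alternatives added after seeing the data, leaving out windows with another gene's end gave 151 and 90, leaving out peaks that reach within 2 kb of a protein-coding gene end gave 185 and 116, and leaving out the chromosome 6 cluster changed no count. Clusters of 5 or more numbered 19 and 12 with neighbours at most 10 and 200 kb apart. The list of 44 had CHD7 at 34 and 39 genes within 500 and 2500 bp.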

Other observations

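The 67 tRNA genes within 2 kb of a protein-coding gene end, which the comparisons leave out, had CHD7 in both libraries at 64 and H3K27ac at 48. Of these 67, 13 had CHD7 and no H3K27ac peak. Input library 2 had a peak at 3 and input library 1 at 0. At these genes, peaks of the tRNA gene and of the protein-coding gene end cannot be told apart. Among 60 windows of ribosomal RNA genes away from protein-coding gene ends, 4 had CHD7 in both libraries and 1 had H3K27ac.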
